A study of Mus musculus with 2 samples.

Results

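The Wnt family described here holds the Wnt ligands, their Frizzled receptors, and the Sfrp and Dkk antagonists. Its members are the probe sets whose only gene symbol in the array's annotation begins with Wnt, Fzd, Sfrp or Dkk followed by a digit. The rule found 75 of 45101 probe sets, which stand for 38 of 18193 genes. These are 19 ligand genes, 10 receptor genes, 4 Sfrp genes, 4 Dkk genes and Fzd10os, a long noncoding RNA gene whose symbol also matches and which is no receptor. The RNA came from fat of C57BL/6 mice, a common inbred strain, collected at an age of 18 weeks. One array held pooled RNA of 3 mice given a high fat diet, HFD32, from the age of 6 weeks, to induce obesity. The other held pooled RNA of 3 mice given a normal diet, CE-2, over the same weeks as the control. The fat depot, the sex of the mice and any genetic change are not stated. With 1 array per diet there was no replicate and no test, and every difference below compares these 2 pools.

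Wnt proteins are lipid-modified secreted signals that bind Frizzled receptors, which are membrane proteins with an outer cysteine-rich domain. With the coreceptors Lrp5 and Lrp6 they stabilise beta-catenin, which then drives transcription with Tcf and Lef proteins, while other Wnts act without beta-catenin. Sfrp proteins carry a domain like that of the receptors and bind Wnts outside the cell, and Dkk proteins bind the coreceptors. In fat, beta-catenin signalling by Wnt is known to hold back the differentiation of fat cells, and Sfrp5 is known as a gene whose RNA increases in expanding fat of mice.

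Values are log2 signals, so a difference of 1, high fat diet minus normal diet, is a 2-fold ratio. A gene is represented by its brightest probe set, and it was compared if the mean of both arrays reached 5.44, the median of all probe sets other than controls (the floor). Background was read from probe sets of sensory receptor genes, whose 95th percentile was 4.96 on the high fat diet array and 4.94 on the normal diet array. The only error at hand is that between probe sets of 1 gene, an SD of 0.27 on the log2 scale over 5131 genes. The 95th percentile of the gap between both differences of a gene with 2 probe sets was 0.70. Neither measures the spread between animals, and signals of different probe sets are not compared with each other.

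Across the 23 family genes above the floor, Fzd10os aside, Sfrp5 alone lay past 2-fold on its brightest probe set. It was higher on the high fat diet array, whereas Sfrp1 was lower there on all 5 of its probe sets and every ligand gene above the floor differed by 0.30 or less. Over all 11778 genes that reached the floor, 3.28% were higher by 2-fold or more, 3.29% lower and 6.57% either. The count of 1 of 23 is thus near the background share. Its median difference was 0.05, against 0 over all genes, and its median absolute difference was 0.21, against 0.23 over all genes. At 1.5-fold, 1 family gene was higher and 2 were lower, Sfrp1 and Fzd6, against 8.2% and 8.52% of all genes, and the 3 in all stand against 16.7%.

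**Figure D1:**
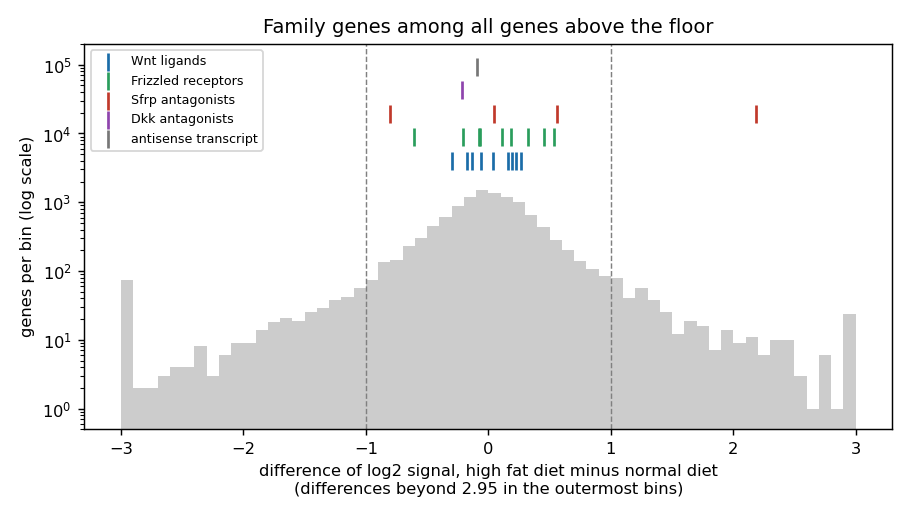
Differences of log2 signal (x axis, high fat diet minus normal diet) of all 11778 genes above the floor as a grey histogram (y axis, genes per bin on a log scale), with a tick for each Wnt family gene in a row per class whose height has no meaning. Dashed lines mark 2-fold, and Sfrp5 at 2.19 is the only family tick outside them.

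Of the 19 Wnt ligand genes, 9 lay above the floor, and none of them reached 1.5-fold between the diets. Their median difference was 0.04, 5 were higher and 4 lower on the high fat diet array, and 7 of the 9 differed by less than 0.25, as did 53.4% of all genes above the floor. Their median absolute difference was 0.17, against 0.23 over all genes. Wnt5a, a ligand that acts mainly without beta-catenin and that Sfrp5 is known to bind, had 7.70 on the high fat diet array and 7.54 on the normal diet array. Its second probe set above the floor had 6.85 on the high fat diet array and 6.54 on the normal diet array. The differences, 0.16 and 0.31, are both under the 95th percentile of gaps between probe sets. Wnt10b, a ligand known to restrain fat cell formation in mice, had 5.86 on the high fat diet array and 5.66 on the normal diet array, a difference of 0.19. Wnt11, which has roles in cell movement, had 6.58 and 6.36 on the same arrays in that order, a difference of 0.23.

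Wnt7b was the ligand gene with the largest positive difference above the floor, 0.27, with 6.56 on the high fat diet array and 6.29 on the normal diet array. Wnt9a had the largest negative one, -0.30, with 5.82 on the high fat diet array and 6.12 on the normal diet array. Wnt6 followed with a difference of -0.17, at 5.57 on the high fat diet array and 5.74 on the normal diet array. Wnt5b had 5.41 on the high fat diet array and 5.54 on the normal diet array, a difference of -0.13, while its other probe set, under the floor, had a difference of 0.27. Wnt7a had 6.48 on the high fat diet array and 6.44 on the normal diet array. Wnt4 had 5.84 on the high fat diet array and 5.91 on the normal diet array, a difference of -0.06 that took the other sign with the median of its probe sets (0.02) and with a further quantile normalization (0.002).

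The other 10 ligand genes lay under the floor. With 3 Dkk genes and Fzd9 they make 14 family genes that were not compared, of which 12 lay under background on both arrays. Their differences ran from -0.27 to 1.35. The highest belongs to Wnt8b, with 4.70 on the high fat diet array and 3.35 on the normal diet array on its brightest probe set, both under background, so its ratio is not read. Its other probe sets had differences of 0.48 and 0.43. Wnt2 had 5.37 on the high fat diet array, above background, and 4.76 on the normal diet array, under it, which makes it at least 1.35-fold higher. Wnt3a had 4.90 on the high fat diet array, under background, and 4.96 on the normal diet array, above it by a small margin. Wnt8b, Wnt2 and Wnt3a were singled out after their values were seen.

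**Figure D2:**
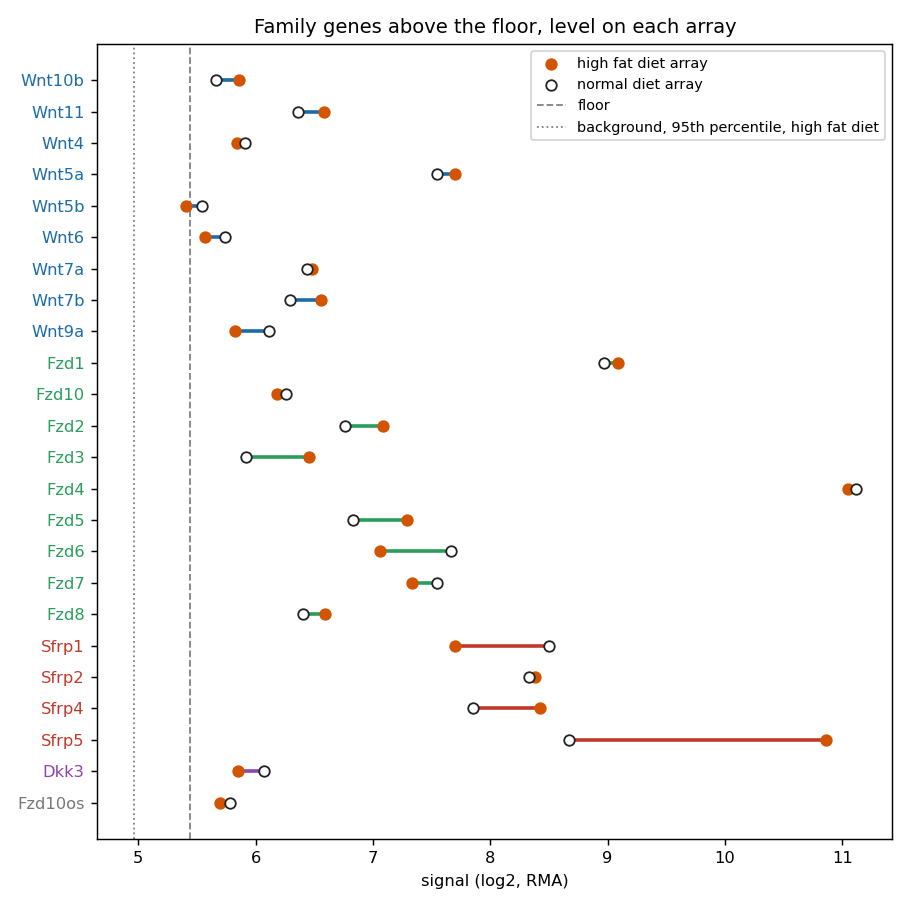
Signal (x axis, log2) on the high fat diet array (filled points) and the normal diet array (open points) for each of the 24 genes of the rule above the floor, coloured by class. Sfrp5 has the longest line, with 10.86 on the high fat diet array and 8.67 on the normal diet array, and the ligand points nearly coincide.

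Of the 10 Frizzled genes 9 lay above the floor, with 5 higher and 4 lower on the high fat diet array and a median difference of 0.11. Fzd4, a receptor for Wnts and for norrin in vessels, had 11.05 on the high fat diet array and 11.12 on the normal diet array. All 3 of its probe sets had negative differences, between -0.35 and -0.02. On the same arrays all 10 endothelial markers had negative differences, with a median of -0.56, and their part in the values of Fzd4 was not tested. Fzd1, a receptor of the beta-catenin route, had 9.09 on the high fat diet array and 8.97 on the normal diet array, with both probe sets higher, by 0.11 and 0.25.

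Fzd6, which is known to act in planar cell polarity, had 7.06 on the high fat diet array and 7.67 on the normal diet array, a difference of -0.61 or 1.52-fold lower. It was the lowest of the receptor genes. One of its 2 other probe sets, both under the floor, pointed the other way with 0.36. Fzd3, also a polarity receptor, had 6.45 on the high fat diet array and 5.92 on the normal diet array, a difference of 0.53, the highest among the receptors. Its second probe set above the floor had -0.24, and of its 6 probe sets 4 were higher and 2 lower. The gap of 0.77 between those above the floor exceeds the 95th percentile of such gaps, so Fzd3 has no settled direction.

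Fzd2 likewise went both ways, with 0.32, 0.09 and -0.40 on its 3 probe sets above the floor, the first at 7.09 on the high fat diet array and 6.76 on the normal diet array. Fzd5, a receptor for Wnt5a among others, had 7.29 on the high fat diet array and 6.83 on the normal diet array, a difference of 0.46, and 0.59 on a dim probe set. Fzd7 had 7.33 on the high fat diet array and 7.55 on the normal diet array, a difference of -0.21, but 0.10 with the median of its probe sets. Fzd8 (6.59 on the high fat diet array and 6.41 on the normal diet array) and Fzd10 (6.19 and 6.26 in the same order) differed by 0.18 and -0.07. Fzd10os, the noncoding gene beside Fzd10, had 5.69 on the high fat diet array and 5.78 on the normal diet array. Among the receptors only Fzd1, Fzd4, Fzd5 and Fzd8 had several probe sets that all pointed one way.

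**Figure D3:**
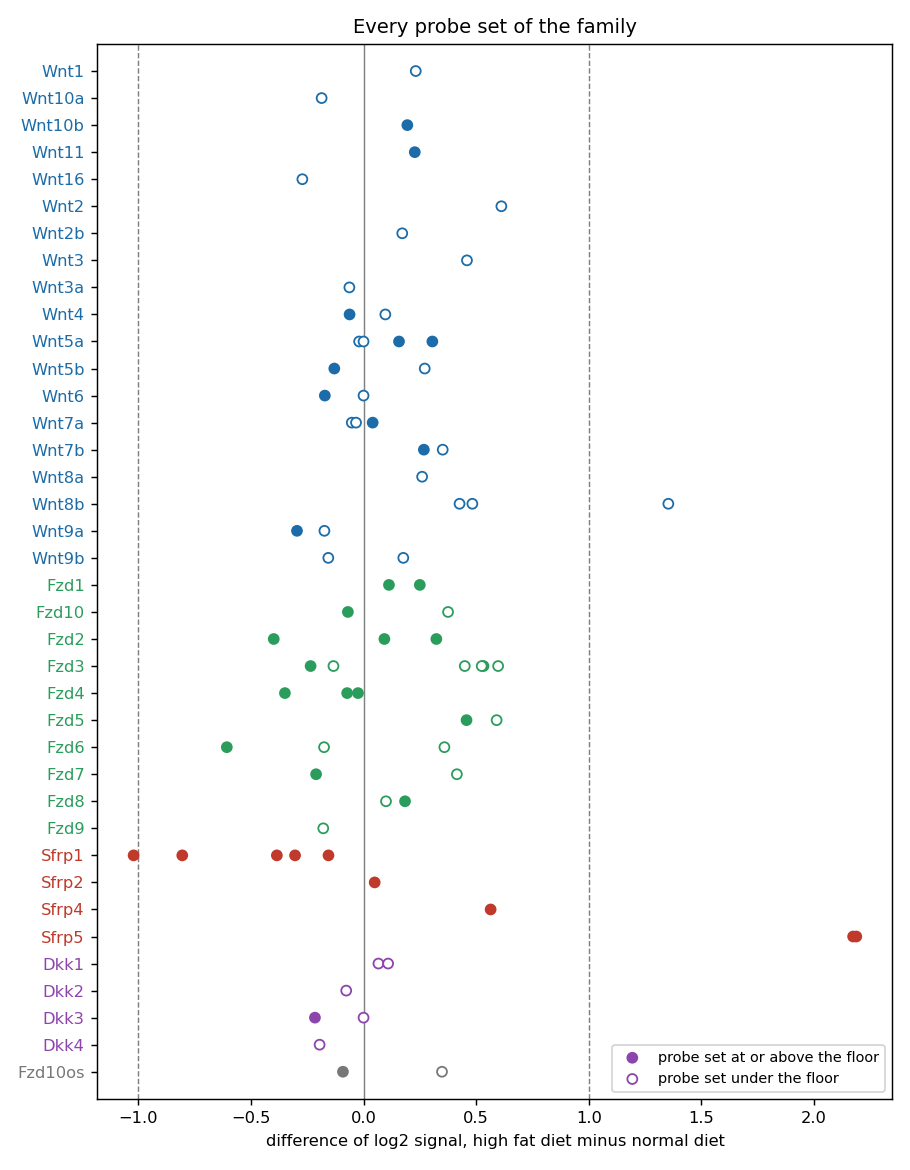
Difference of log2 signal (x axis, high fat diet minus normal diet) for all 75 probe sets, a row per gene, with filled points at or above the floor and open points under it. Dashed lines mark 2-fold. The 2 points of Sfrp5 lie at 2.17 and 2.19, the 5 of Sfrp1 are all below 0, and Fzd2 and Fzd3 have filled points on both sides of 0.

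The antagonists of the Sfrp group held both the highest and the lowest difference of the family. Sfrp5 had 10.86 on the high fat diet array and 8.67 on the normal diet array, and on its second probe set 10.50 on the high fat diet array and 8.32 on the normal diet array. It was 4.56-fold and 4.51-fold higher, and the gap of 0.01 between both differences is far under the usual one of 0.18. It ranked at place 63 from the top among the 11778 genes, with 0.526% of them higher. In bulk tissue, more cells of a type and more RNA per cell cannot be told apart.

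Sfrp1, a relative of Sfrp5 that binds Wnts as well, stood on the other side. Its brightest probe set had 7.70 on the high fat diet array and 8.50 on the normal diet array, 1.75-fold lower. The others had 6.38 on the high fat diet array and 7.40 on the normal diet array, then 6.39 and 6.78, 6.31 and 6.47, and 5.95 and 6.25 in the same order of arrays. All 5 were lower, by differences of -0.80, -1.02, -0.38, -0.16 and -0.30, so the direction held on each and the size did not. A single one was past 2-fold (2.03-fold lower), and the median of the 5 was -0.38. On the brightest probe set 4.98% of all genes were lower still.

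Sfrp4, an antagonist also made by stromal cells, had 8.42 on the high fat diet array and 7.86 on the normal diet array. It was 1.48-fold higher on its 1 probe set, and 8.58% of all genes were higher. Sfrp2, the close relative of Sfrp1 expressed by fibroblasts, had 8.38 on the high fat diet array and 8.33 on the normal diet array, a difference of 0.05 on its 1 probe set. The median of the 4 Sfrp genes, 0.31, thus lies between members that went opposite ways.

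**Figure D4:**
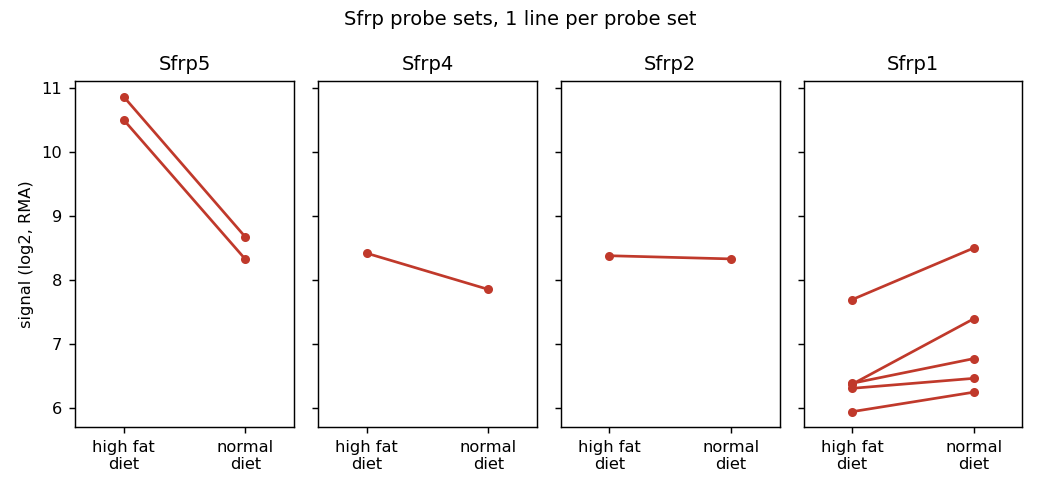
Signal (y axis, log2) of every Sfrp probe set on the high fat diet array (left) and the normal diet array (right), 1 line per probe set. Both Sfrp5 lines and the Sfrp4 line slope down towards the normal diet, the Sfrp2 line is nearly flat, and the 5 Sfrp1 lines slope up.

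The promoters of Sfrp5 and Sfrp2 are shown because no promoter window was at hand for Sfrp1 and Sfrp4. Sfrp5 was 4.56-fold higher and Sfrp2 differed by 0.05. Each window runs from 250 bases before to 50 bases after the gene's start in RefSeq, build GRCm38.p6, that of Sfrp5 at chr19:42202203-42202502 on the minus strand and that of Sfrp2 at chr3:83766071-83766370 on the plus strand. Capitals mark the motifs found.
Sfrp5: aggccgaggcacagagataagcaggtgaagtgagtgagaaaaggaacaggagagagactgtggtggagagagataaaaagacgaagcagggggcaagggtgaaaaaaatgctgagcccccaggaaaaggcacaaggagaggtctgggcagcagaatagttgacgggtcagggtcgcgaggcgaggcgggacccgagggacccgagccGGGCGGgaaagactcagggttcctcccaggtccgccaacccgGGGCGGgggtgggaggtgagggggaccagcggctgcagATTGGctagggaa
Sfrp2: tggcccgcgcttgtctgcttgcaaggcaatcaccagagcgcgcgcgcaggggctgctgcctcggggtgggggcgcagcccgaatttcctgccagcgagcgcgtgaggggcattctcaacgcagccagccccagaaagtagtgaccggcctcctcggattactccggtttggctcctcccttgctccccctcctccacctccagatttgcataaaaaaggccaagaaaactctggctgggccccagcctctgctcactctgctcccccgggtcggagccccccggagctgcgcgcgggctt

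Searched on both strands were GGGCGG (the GC box), CCAAT (the box of that name), TATAAA (the TATA box), CTTTGA (a core of Tcf and Lef sites) and AGGTCA (a nuclear receptor half-site), which share no overlapping match in these windows. The Sfrp5 window holds GGGCGG from bases 208 and 250 and CCAAT, read on the other strand, from base 288. Of 32851 promoter windows in the same table, 35.7% hold GGGCGG and 37.4% hold CCAAT. None of these letters is in the Sfrp2 window. CTTTGA, which 16.0% of all windows hold, is in neither. Over the 25 family genes with a window in the table, 28 windows in all, 21 hold GGGCGG and 4 hold CTTTGA. These matches describe the letters and say nothing of binding.

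Dkk genes gave little signal. Dkk3, a divergent member that is not a classical inhibitor of the coreceptors, was the 1 gene of 4 above the floor, with 5.85 on the high fat diet array and 6.07 on the normal diet array, a difference of -0.22. Its second probe set, under the floor, had exactly the same value, 5.25, on both. Dkk1, the inhibitor that binds Lrp5 and Lrp6, had 3.44 on the high fat diet array and 3.37 on the normal diet array, under background on both. Dkk2 (4.05 on the high fat diet array and 4.12 on the normal diet array) and Dkk4 (2.86 and 3.06 in the same order) were under background as well. Of the antagonists only the Sfrp genes and Dkk3 could therefore be compared.

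Other parts of the pathway were read from gene lists. Genes for the secretion of Wnt ligands and for their modifiers outside the cell had 6 of 16 measured genes above the floor, with 5 lower, 0 higher and 1 equal, and a median of -0.49 (-0.029 over all 16 with no floor), against 0 over all genes. Past 2-fold was 1 of the 6, which was lower, against 3.29% of all genes. The secretion gene Wls had 9.66 on the high fat diet array and 9.68 on the normal diet array, a difference of -0.02. Porcn had -0.45. Both were named after their values were seen. Sost, an inhibitor of Lrp5 and Lrp6 known from bone, had 4.91 on the high fat diet array, under background, and 6.58 on the normal diet array, at least 3.07-fold lower. Rspo1, which amplifies Wnt signals through Lgr receptors, had 7.47 on the high fat diet array and 8.45 on the normal diet array, 1.97-fold lower. Rspo3, of the same family, was singled out after its values were seen, since its mean lay under the floor. It had 4.17 on the high fat diet array, under background, and 6.33 on the normal diet array, at least 2.59-fold lower. Apcdd1, a membrane inhibitor, had a difference of -0.54, with all 5 probe sets above the floor lower. The antagonists Frzb, a further Sfrp relative, and Wif1 were under background on both arrays. Beside these genes, 9 of 9 mesothelium markers and 7 of 8 smooth muscle and pericyte markers had negative differences, and their part in the differences of Sfrp1, Sost, Rspo1 and Rspo3 was not tested.

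Coreceptors, receptors beside Frizzled and enzymes of their turnover went both ways. Of 12 measured genes 6 lay above the floor, 4 higher and 2 lower and none past 2-fold, with a median of 0.06 (-0.01 with no floor). Lrp6, the coreceptor, had 9.44 on the high fat diet array and 9.40 on the normal diet array. Its other probe set above the floor had a difference of 0.52. Lrp5 was under background. Lgr4, a receptor of R-spondins, and the receptor kinase Ryk had differences of 0.17 and 0.08, and Lgr6 had 0.13. Ryk had -0.15 on its other probe set above the floor. Znrf3, an enzyme that removes Frizzled from the membrane and is itself a target of the pathway, had 6.37 on the high fat diet array and 6.98 on the normal diet array, 1.53-fold lower. Ror1, a receptor for Wnt5a, had -0.52.

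Inside the cell, 23 of 26 genes lay above the floor, 10 higher and 13 lower and 0 past 2-fold in either direction, with a median of -0.03. Ctnnb1, which encodes beta-catenin, had 12.30 on the high fat diet array and 12.33 on the normal diet array. The lowest was Tcf7l2, the main Tcf factor of fat cells, with 7.47 on the high fat diet array and 8.32 on the normal diet array, 1.80-fold lower. All 3 of its probe sets above the floor were lower, down to -0.33 on the least different. Tcf7l1 followed with -0.40 and Tnks2, which marks axin for degradation, with -0.33. Amer1 and Apc2 stood highest with 0.31 each.

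Transcriptional targets of beta-catenin went both ways. Of 11 above the floor 5 were higher, 3 of them past 2-fold, and 6 lower, 0 past 2-fold, against 3.28% higher and 3.29% lower past 2-fold among all genes. The median was -0.09 (0.02 without probe sets shared between transcripts). Axin2, the feedback inhibitor often used as a readout of the pathway, had 6.90 on the high fat diet array and 7.66 on the normal diet array, 1.69-fold lower. Id2 had -0.65 and Znrf3 -0.61. Cd44, a hyaluronan receptor that many leukocytes carry, had 10.53 on the high fat diet array and 9.05 on the normal diet array, 2.79-fold higher. Ccn5, a secreted matricellular protein of preadipocytes, was 2.57-fold higher, and Nkd1, a Dishevelled inhibitor named after its value was seen, was 2.28-fold higher, with a smallest difference of 0.42 among its 3 probe sets above the floor. Beside Cd44, all 12 macrophage markers had positive differences, with a median of 1.23 and a mean level of 10.52 on the high fat diet array and 9.34 on the normal diet array, and their part in it was not tested.

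Components of Wnt routes without beta-catenin had 16 of 18 genes above the floor, 6 higher and 10 lower and none past 2-fold, with a median of -0.05. Prickle1, a core gene of planar polarity, was 1.85-fold lower, with 6.78 on the high fat diet array and 7.66 on the normal diet array. Camk2d had -0.45, with probe sets above the floor from -1.02 to 0.02, and Celsr2 had -0.44, or -0.18 with the median of its probe sets. Nfatc2 had 0.34, and Camk2a had 0.18 with -0.10 on another probe set above the floor.

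**Figure D5:**
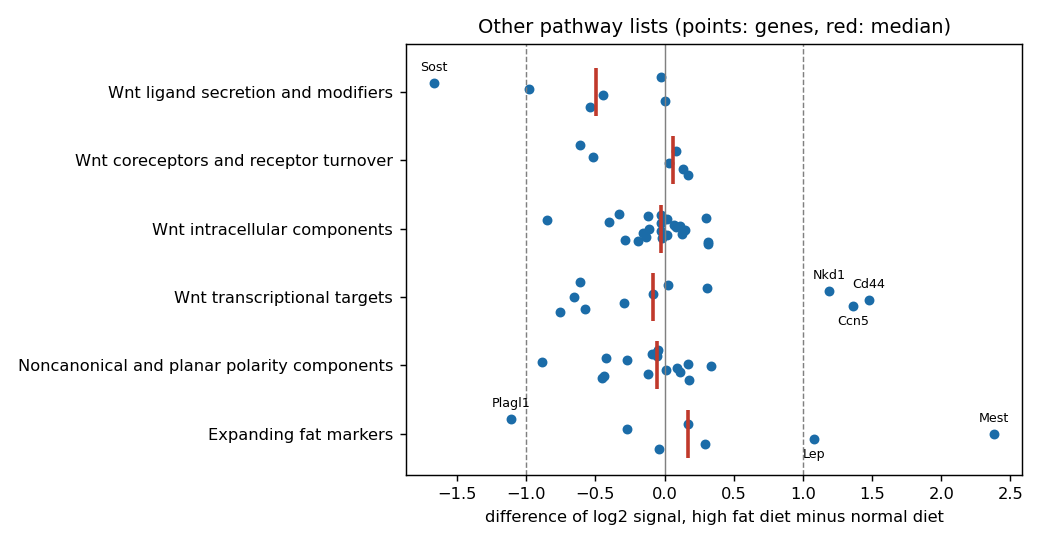
Difference of log2 signal (x axis, high fat diet minus normal diet) for the genes above the floor in 6 lists (rows), 1 point per gene, with the list's median as a red bar, dashed lines at 2-fold and names at the genes past it. The bars of 5 lists lie between -0.09 and 0.17, and that of the ligand secretion and modifier genes at -0.49.

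Since Sfrp5 is known from expanding fat, other markers of expansion were read beside it. Of 9 measured 7 lay above the floor, 4 higher and 3 lower, with a median of 0.17 (0.56 without such shared probe sets). Mest, a gene of the same expansion signature, had 12.79 on the high fat diet array and 10.41 on the normal diet array, 5.22-fold higher. Lep, which encodes leptin, was 2.11-fold higher. Npr3 had 0.17, and Cavin1 had 0.29, or 0.95 without such shared probe sets. Ndn had -0.27 and Cav1 -0.04, while Plagl1, an imprinted transcription factor, had 11.22 on the high fat diet array and 12.33 on the normal diet array, 2.16-fold lower. The 7 genes listed here thus did not all share the direction of Sfrp5. Past 2-fold were Mest and Lep, both higher, and Plagl1, lower. Whether each listed gene marks expansion in this fat was not tested.

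The label of adipose tissue was checked by 10 adipocyte markers, none under background on either array, with a mean level of 12.60 on the high fat diet array and 12.81 on the normal diet array. Adipose progenitor and fibroblast markers had 7 of 11 higher and a median of 0.13, with Dlk1 and Gli1 under background on both arrays. The 4 lower ones were Pdgfra (-0.49), Cd34 (-0.56), Dpp4 (-0.41) and Pi16 (-0.30). Markers of other tissues differed more. Mesothelium markers had a mean level of 7.52 on the high fat diet array and 8.53 on the normal diet array, and smooth muscle and pericyte markers 8.68 and 10.04 in the same order. The 8 skeletal muscle markers had a mean level of 6.76 on the high fat diet array and 8.55 on the normal diet array. Liver markers had 5.19 on the high fat diet array, with 3 of 9 under background, and 10.51 on the normal diet array, with 0. Pancreas markers had 5.99 on the high fat diet array, with 3 of 6 under background, and 8.75 on the normal diet array, with 0, and of these Cela1 alone was higher, by 0.95 on the log2 scale. Epididymis and testis markers had 7.88 on the high fat diet array, with 1 of 7 under background, and 5.40 on the normal diet array, with 4. These went both ways, since Gpx5, Lcn8, Lcn9, Adam7 and Cst12 were higher by 4.03 to 5.11 on the log2 scale, while the testis genes Tnp1 (-3.08) and Prm1 (-1.91) were lower. The part of all these markers in the Wnt family values was not tested.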

How the data were processed

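Pooled RNA of 3 mice per diet was labelled with biotin and measured on 2 Affymetrix mouse arrays, 1 per diet. The deposited values are log2 signals, 1 per probe set, which the authors made with RMA, per the submitters' processing notes, a method that corrects background, equalises the arrays and summarises the probes of each set. That they are log2 was read from their range, 2.04 to 14.28. The RMA version is not stated, and differences of such array signals can be compressed at both ends of the scale.

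Probe sets were named by GEO's platform annotation, with symbols checked by Entrez ID against RefSeq (GRCm38.p6), which held all 38 genes and changed no symbol. Of the probe sets 34945 had 1 symbol. Background came from 81 probe sets of olfactory, vomeronasal and bitter taste receptor genes. A ratio to an array under background is written "at least" and computed against its 95th percentile.

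Members and lists were chosen with earlier results of these data known. With 1 array per diet there is no test, p-value or SD between samples, and the number of arrays limits the precision. Named were all family genes above the floor, those past 2-fold on any such probe set, and up to 5 genes per pathway list (the 3 farthest towards its median and the 2 farthest the other way) with Mest, Lrp5, Lrp6, Frzb, Wif1, Axin2 and Ctnnb1. The calling steps were run on simulated data with shifts set past the threshold. That run checks the computation and says nothing of the spread between animals. Alternatives covered the floor, the probe set of a gene, shared probe sets, dim signals, normalization and the fold. Computations used Python 3.11.15 and pandas 2.3.3.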

Additional observations from a re-analysis of the deposited data

How the results depend on the processing

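Of 8 alternatives, the 7 that give Sfrp5 a value kept its difference between 2.17 and 2.19. Only the median of its probe sets (2.18) and the added quantile normalization (2.17) changed it. The others left its brightest probe set and signals as they were, so they could not move it. Of 131 values of counts, list medians and Sfrp5, 119 moved by less than 0.27 on the log2 scale (counts by no more than 1.5 times) and 12 by more. With no floor, 2 family genes were past 2-fold, both higher, Wnt8b under background being the second, and the median of the ligand secretion and modifier genes was -0.029. With 1.5-fold in place of 2-fold, 3 family genes were called, 2 of them lower, among 1970 of all genes, 966 higher and 1004 lower. With the floor at the 75th percentile 322 of all genes were called, 190 higher and 132 lower, against 774 at the usual floor. At that higher floor 7 family genes were left to compare, 1 ligand gene, 2 receptor genes, the 4 Sfrp genes and no Dkk gene. Without probe sets shared between transcripts, the median of the expanding fat markers was 0.56. The 1.5-fold counts follow from the lower threshold over the same genes, and the others from fewer, dimmer or other probe sets entering. Of 311 values of single named genes 306 moved by less than 0.27, and 5 by more. Those were Fzd7 (0.10), Sfrp1 (-0.38) and Tcf7l2 (-0.53) with the median of a gene's probe sets, and Cavin1 (0.95) and Plagl1 (-1.52) without the shared probe sets. Fzd7 and Wnt4 changed sign. Many of the 311 values could not move, since a change of floor keeps the brightest probe set of each gene and its difference. Raising dim signals alters only genes under background on an array. With the median of a gene's probe sets, 14 of the 23 family genes stayed above the floor, with 4 ligand genes and 5 receptor genes among them. Fzd3, Fzd6, Fzd8, Fzd10, Wnt5b, Wnt6, Wnt7a, Wnt7b and Wnt9a fell under it and gave no value. No paired analysis was possible because each diet has 1 array. Signal near background limits the ligands and Dkk genes most.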

Other observations

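Among the family genes, 4 pairs neighbour each other in the RefSeq order of protein-coding genes, each a pair of Wnt ligands. Wnt6 and Wnt10a on chromosome 1 had differences of -0.17 and -0.19, and Wnt10b and Wnt1 on chromosome 15 had 0.19 and 0.23. On chromosome 11, Wnt9a and Wnt3a had -0.30 and -0.06, and Wnt9b and Wnt3 had -0.16 and 0.46. Of these 8 genes only Wnt6, Wnt9a and Wnt10b lay above the floor, so the neighbours' values are given as they stand and carry no comparison. On 3 of the 75 family probe sets, of Wnt5a, Wnt6 and Dkk3, both arrays had exactly the same value, as on 1509 of all 45101.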
